A study of Mus musculus with 36 samples.

Results

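Of 36 bulk hippocampal RNA libraries, 19 were rich and 15 were poor in Ttr, the transcript of the thyroid hormone carrier transthyretin that marks the choroid plexus. The libraries were chosen by their own Ttr level: a library was called rich at 500 or more CPM of Ttr (CPM is a gene's count scaled to the library's total, 1000 CPM being 0.1% of all counts) and poor below 100 CPM, and 2 libraries lay between these limits and were left out of the comparison. Because a measured value made the classes, every difference between them is given as a description, without a test. The sections that do carry tests use the genotype and training labels, which had no part in making the classes, or pairs of genes within a class.

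All libraries came from female mice aged 6 months carrying Pvalb-IRES-Cre and RiboTag (PV_Cre;RiboTag+/-), so the WT controls carried both alleles too. APP mice were heterozygous for the Sw,Ind transgene of the J9 line, Tau mice carried the P301S transgene of the PS19 line, APP/Tau mice carried both, and all were on C57BL/6. Naive mice stayed in the home cage, and trained mice were taught the place of a submerged platform (Morris water maze) over 5 days at 6 trials a day, with a probe trial 24 hours later and dissection 2 hours after that. All mice were handled on 3 days. Each library was the input fraction, a post-mitochondrial lysate of both hippocampi with no ribosome pull-down, so it holds RNA of every cell in the dissected tissue. The groups held 6 WT naive, 5 WT trained, 5 APP naive, 3 APP trained, 4 Tau naive, 4 Tau trained, 6 APP/Tau naive and 3 APP/Tau trained libraries. Whether every library is a separate mouse is not stated in the labels, and the spread behind each p-value may therefore be partly technical.

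The choroid plexus is a sheet of epithelium in the brain ventricles that makes cerebrospinal fluid, secretes carrier proteins and hormones into it, and forms the barrier between blood and fluid through tight junctions. It rests on a stroma with fibroblasts and fenestrated capillaries. The ventricle wall beside it is lined by ependyma, whose motile cilia move the fluid, and the lateral ventricle lies against the hippocampus. OTX2 is a homeodomain factor of the choroid plexus, and RFX factors with FOXJ1 drive the genes of motile cilia.

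Promoter sequence is shown for genes of both tissues because the lists behaved differently between the classes. The windows run from 250 bases before to 50 bases after a transcript start, are taken from RefSeq on GRCm38.p6 and are read 5′ to 3′ on the gene's strand. Capitals mark TAATCC, the OTX2 core, or GTTGCC, a core of RFX sites, on either strand (GGATTA and GGCAAC are the reverse complements). The examples were chosen after the matches were known. Otx2 on chr14:48665060-48665359 (minus strand), Abca4 on chr3:122044210-122044509 (plus strand) and Ace on chr11:105967698-105967997 (plus strand) are choroid plexus genes with the OTX2 core. The table holds 4 windows for Otx2, and 2 of the others, which overlap each other, carry the RFX core and no OTX2 core. Ace and Tekt1 each have another window that carries neither core.
Otx2: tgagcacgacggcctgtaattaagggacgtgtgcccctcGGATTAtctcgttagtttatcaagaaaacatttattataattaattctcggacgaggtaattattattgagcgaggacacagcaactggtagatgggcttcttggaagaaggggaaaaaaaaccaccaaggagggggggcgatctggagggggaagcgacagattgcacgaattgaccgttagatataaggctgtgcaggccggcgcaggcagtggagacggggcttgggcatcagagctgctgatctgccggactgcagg
Abca4: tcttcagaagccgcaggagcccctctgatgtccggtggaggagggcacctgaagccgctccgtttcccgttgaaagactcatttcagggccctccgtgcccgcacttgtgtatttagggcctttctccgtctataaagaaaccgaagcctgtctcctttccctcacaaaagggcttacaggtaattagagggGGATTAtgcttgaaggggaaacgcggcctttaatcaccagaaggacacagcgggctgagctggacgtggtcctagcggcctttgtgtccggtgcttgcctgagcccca
Ace: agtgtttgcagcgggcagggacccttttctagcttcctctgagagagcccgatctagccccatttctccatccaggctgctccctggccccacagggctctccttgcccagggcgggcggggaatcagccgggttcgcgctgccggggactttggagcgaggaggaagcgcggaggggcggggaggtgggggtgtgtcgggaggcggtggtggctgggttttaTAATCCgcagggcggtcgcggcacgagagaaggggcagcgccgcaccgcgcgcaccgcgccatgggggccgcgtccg
Tekt1 on chr11:72361833-72362132 (minus strand) and Ccdc153 on chr9:44240427-44240726 (plus strand) belong to motile cilia and ependyma and carry the RFX core.
Tekt1: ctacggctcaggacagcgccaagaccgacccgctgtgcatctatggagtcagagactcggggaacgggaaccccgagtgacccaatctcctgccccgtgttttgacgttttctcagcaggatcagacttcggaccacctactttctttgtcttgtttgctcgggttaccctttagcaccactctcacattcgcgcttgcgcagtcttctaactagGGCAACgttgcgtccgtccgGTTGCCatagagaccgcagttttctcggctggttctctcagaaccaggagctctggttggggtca
Ccdc153: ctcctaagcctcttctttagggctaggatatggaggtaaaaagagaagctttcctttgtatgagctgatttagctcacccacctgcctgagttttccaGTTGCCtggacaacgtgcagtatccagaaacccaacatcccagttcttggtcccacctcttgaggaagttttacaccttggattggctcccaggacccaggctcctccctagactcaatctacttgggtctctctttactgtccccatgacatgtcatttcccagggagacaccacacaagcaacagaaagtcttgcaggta

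A gene was counted where any of its promoter windows held the core. Of the 36 choroid plexus genes that stood apart between the classes, 26 had a promoter, and 6 of these (23.1%) had the OTX2 core. Over the whole promoter table it was 2199 of 27025 genes (8.14%). Over the whole choroid plexus list it was 9 of 48 (18.8%), and among ependymal genes 5 of 40 (12.5%). The RFX core was present for 21 of 40 matched ependymal genes (52.5%), beside 14.1% of all genes, and for 5 of the 26 choroid plexus genes (19.2%). The forkhead core TGTTTAC, was present for 1 of those 26 choroid plexus genes (3.85%) and 6 of the 40 ependymal genes (15%), beside 4.05% of all genes. No motif contains another, and a match of letters does not show binding.

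Ttr was at 639 CPM in the lowest rich library, 1882 in the median one and 4223 in the highest. In the poor libraries the lowest, median and highest levels were 24.4, 47.4 and 99.9 CPM. Ttr thus took 0.0639% to 0.422% of all counts in rich libraries, and it was above 2000 counts in every poor library too, the lowest count being 2045. The values nearest the limits were 99.9 CPM in WT naive replicate 1, 420 in APP naive replicate 2, 474 in Tau trained replicate 2, 639 in WT trained replicate 4 and 873 in WT trained replicate 3. Total counts ran from 70.9 to 124.8 M (M for mega) in rich and from 69.2 to 115.0 M in poor libraries, so the classes overlapped in depth.

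Both classes occurred in 5 of the 8 groups. WT naive had 2 rich and 4 poor libraries, WT trained 2 and 3, APP trained 2 and 1, APP/Tau naive 3 and 3, and APP/Tau trained 2 and 1. All 4 Tau naive libraries were rich, and Tau trained had 3 poor libraries and 1 between the limits. APP naive had 4 rich libraries and 1 between. In WT naive mice, which carry neither disease transgene, the 4 poor libraries had Ttr at 99.9, 25.9, 44.7 and 24.4 CPM and the 2 rich ones at 1474 and 2282 CPM. Since the rule used Ttr, this gap is a description of the group.

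**Figure D1:**
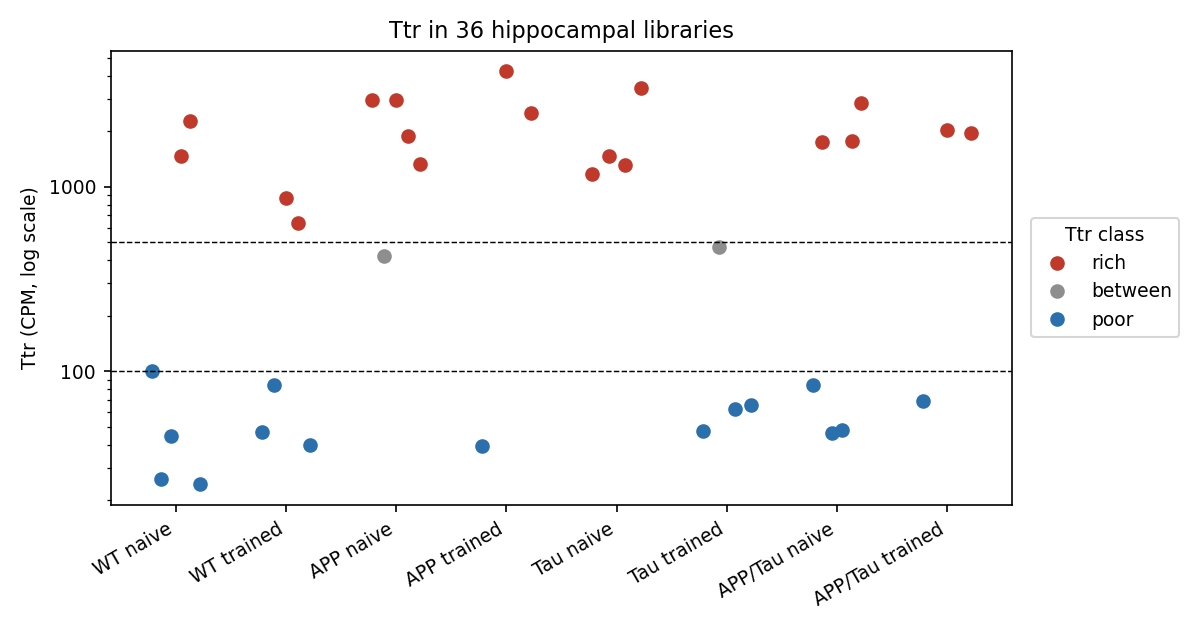
Ttr level of each library (CPM, log axis) by genotype and training group; each point is a library, coloured by class, and dashed lines mark 100 and 500 CPM. Rich libraries (639 to 4223 CPM) and poor libraries (24.4 to 99.9 CPM) share 5 of the 8 groups.

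The classes were compared with the labels by Fisher's exact test, two-sided, adjusted by Benjamini-Hochberg over 3 labels. Of the libraries with APP, 11 were rich and 5 poor, against 8 and 10 without it (exact p = 0.185, adjusted p = 0.444). Of the libraries with Tau, 9 were rich and 7 poor, against 10 and 8 without it (exact p = 1). Of the trained libraries, 6 were rich and 8 poor, against 13 and 7 of the naive ones (exact p = 0.296, adjusted p = 0.444). No label passed the threshold. The running number that the labels give each library moved with the class. Among numbers 1 to 13, 1 library was rich, 11 were poor and 1 lay between, and among numbers 14 to 36, 18 were rich, 4 poor and 1 between. What this number counts is not said in the labels, the division at 13 was chosen after the values were seen, and its part in the classes was not tested.

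Of 25382 genes that passed a filter on low counts, 80 (0.315%) lay higher in every rich library than in any poor library with means at least 1 apart on the log2 CPM scale, and 0 lay lower in the same way (0%). Without the limit on size the counts were 87 and 0. The median difference over all genes was -0.0045 on the log2 scale. Of the 80 genes, 36 belonged to the choroid plexus list and 44 to no list. Only 15 of the 44 had an established symbol and a mean log2 CPM of at least 0. Some were near 0 in the poor libraries: Tcf21 was at 0 CPM in all of them, so its rich libraries carried it past the filter. Ttr, whose outcome the rule fixed, is among the 80 and the 36. Having no overlap, all 80 necessarily had a higher mean in the rich libraries in each of the 5 groups that held both classes. The median of the 2 in-between libraries fell between the class medians for all 80, but Ttr had placed these libraries too. In bulk tissue, more cells of a type and more RNA per cell cannot be told apart.

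All 60 measured members of the choroid plexus list passed the filter and had a higher mean in the rich libraries, by 1.94 on the log2 CPM scale at the median (0.28 to 5.17). The highest value is that of Ttr itself, and the next is 4.75 for Tmem72. For 57 of them the mean was higher in each of the 5 mixed groups, beside 1506 over all genes, with 25382 past the filter. The 39 members without overlap between the classes met this by construction. Without Ttr, the members summed to 1538 to 4739 CPM in rich libraries (median 2779) and to 688 to 987 CPM in poor ones (median 806). The summed levels did not overlap, though the poor sums were well above 0. The members described below are the most abundant of each role, and others were chosen after their values were seen. Each difference is of mean log2 CPM, rich minus poor, with a prior count of 2.

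Among secreted and carrier proteins, 9 of 15, Ttr included, stood apart between the classes, with a median difference of 1.96. Enpp2, which encodes the lysophospholipase autotaxin, was at 446, 1046 and 1949 CPM (lowest, median, highest) in rich and 124, 172 and 236 CPM in poor libraries, a difference of 2.58. Folr1, the folate receptor that moves folate into cerebrospinal fluid, was at 6.12, 15.5 and 35.1 CPM against 0.413, 0.800 and 1.67 CPM, a difference of 4.14. Neither gene overlapped between the classes. F5, coagulation factor V, differed by 4.16 and Ecrg4, the secreted peptide precursor augurin, by 3.69. Igf2, a growth factor of plexus and meninges, did overlap: it was at 97.8 to 298 CPM in rich and 29 to 144 CPM in poor libraries, a difference of 1.66. Igfbp2, which binds insulin-like growth factors, came close to separation, with the lowest rich library at 37.6 CPM and the highest poor one at 37.7 CPM. Stra6, a membrane receptor gene, had the smallest difference of this role at 0.48.

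Ion and solute transport gave 10 of 18 members apart, with a median difference of 2.10. Aqp1, the apical water channel, was at 6.05, 15.3 and 31.8 CPM in rich and 0.339, 0.680 and 1.37 CPM in poor libraries. Slc4a5, a sodium bicarbonate cotransporter, was at 7.22, 19.7 and 34.7 CPM against 0.391, 0.696 and 1.24 CPM. Both sets of values were separate, with differences of 4.45 and 4.73. The potassium channel genes Kcnj13 (4.10) and Kcne2 (4.63) and the membrane protein gene Tmem72 (4.75) were of the same size. The more abundant members differed less. Clic6, a chloride channel protein gene, differed by 2.87, Slc4a2, an anion exchanger, by 1.14 and Trpm3, a cation channel, by 0.89. Trpm3 was at 121 CPM in the lowest rich library and 119 CPM in the highest poor one, so it did not overlap but fell short of the size limit. The carbonic anhydrase gene Car12 overlapped, at 33 to 81.5 CPM against 25.5 to 46.1 CPM.

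Of receptors and surface enzymes, 6 of 7 stood apart (median difference 2.39). Kl, which encodes klotho, was at 45.2, 117 and 186 CPM in rich and 18.5, 25.6 and 29.2 CPM in poor libraries, a difference of 2.16. Prlr, the prolactin receptor, was at 24.4, 71.9 and 97.6 CPM against 4.93, 5.89 and 8.27 CPM, a difference of 3.32. Ace, angiotensin-converting enzyme, differed by 2.26. All 3 were apart, whereas Htr2c, a serotonin receptor also made by neurons, overlapped at 52.1 to 101 CPM against 34.4 to 55.2 CPM. Mfrp differed by 2.39, but its counts were identical to those of C1qtnf5 in every library, so these genes cannot be told apart.

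The transcription factor genes Otx2 and Lmx1a stood apart among the 4 regulators. Otx2 was at 6.13, 13.8 and 19.5 CPM in rich and 1.21, 2.25 and 5.31 CPM in poor libraries, a difference of 2.37. Lmx1a, a roof plate factor, differed by 2.06. The homeobox gene Msx1 (1.11) and the cell cycle inhibitor gene Cdkn1c (1.48) overlapped.

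Among junction and keratin genes 5 of 12 stood apart, and all 4 matrix genes did. Cldn2, a claudin that forms cation-permeable tight junctions, was at 5.94, 17.8 and 31.6 CPM in rich and 0.658, 1.06 and 1.52 CPM in poor libraries, a difference of 4.00. Krt18, a keratin of simple epithelia, differed by 2.22 and was apart as well. Ezr, which links membrane to actin in many cells, had the smallest difference of the list at 0.28, and Cab39l (0.73) and the protease inhibitor gene Spint2 (0.85) were also low. Cab39l overlapped narrowly, at 34.9 to 67.1 CPM against 28.3 to 35.3 CPM, and Ezr widely, at 67.5 to 89.7 CPM against 53.5 to 87.3 CPM. The collagen genes Col8a1 (3.65), Col8a2 (2.62) and Col9a3 (1.66) and the sulfatase gene Sulf1 (2.08) made up the matrix members.

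**Figure D2:**
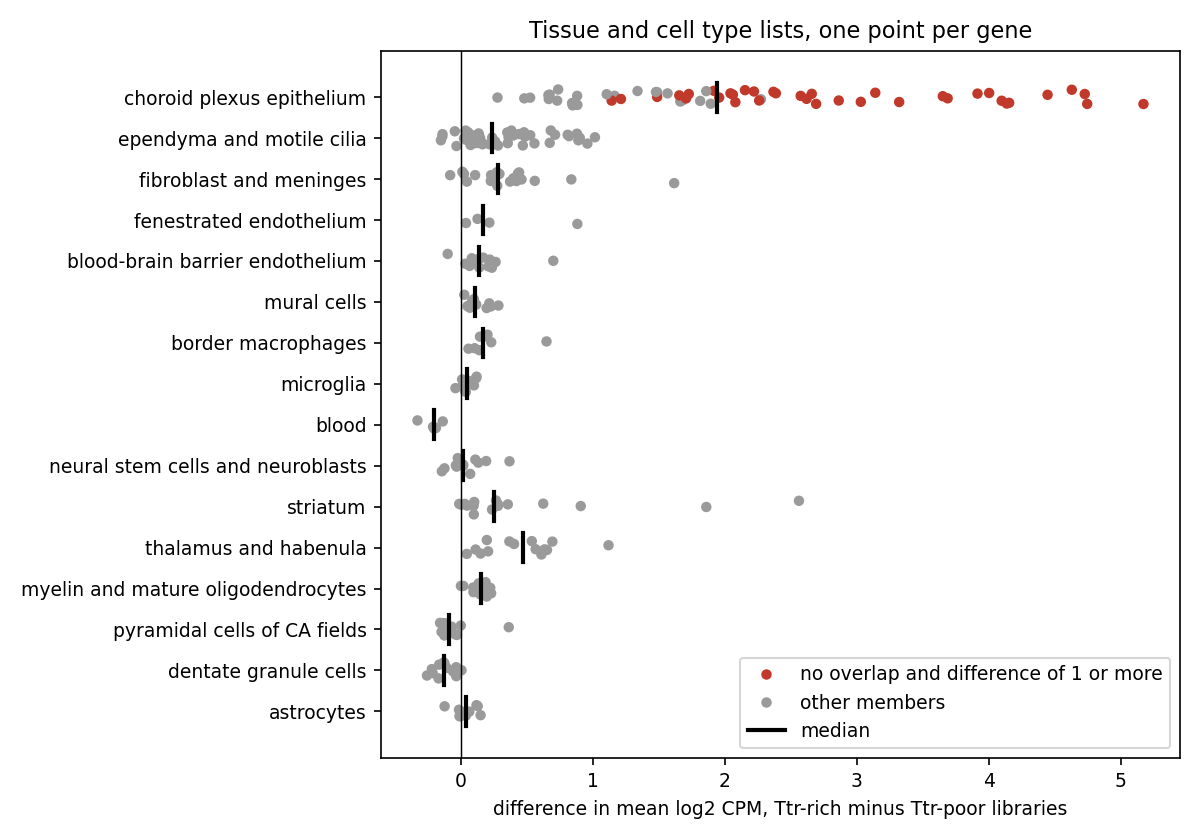
Difference in mean log2 CPM, 19 rich minus 15 poor libraries, for each gene of 16 tissue and cell type lists; red points are genes with no overlap and a difference of 1 or more, and black bars are list medians. Red points occur in the choroid plexus list alone (36 of 60), whose median is 1.94, against 0.24 for ependyma and 0.47 for thalamus and habenula.

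Genes outside the lists widened the picture. The 12 named here are the largest differences among genes with an established symbol and a mean log2 CPM of at least 0. Rarer genes had larger ones, such as Wfdc2 (4.46), at 0 to 0.291 CPM in poor libraries. Col4a3 (2.51) and Col4a4 (1.77) encode basement membrane collagens. Slc2a12, a glucose transporter gene, was at 8.30, 17.8 and 27.3 CPM in rich and 2.90, 3.93 and 5.78 CPM in poor libraries, a difference of 2.09. Cgnl1, which encodes a junction protein, was at 12.3, 20.7 and 29.1 CPM against 2.18, 5.02 and 8.63 CPM, a difference of 1.96. Pon3 (1.75), Ltc4s (1.49), St6galnac2 (1.60) and Glb1l2 (1.49) encode a lactonase of the paraoxonase family, leukotriene C4 synthase, a sialyltransferase and a galactosidase-like protein. Fap, a surface protease gene (2.11), Prr32 (2.36) and C1qtnf5 (2.39, shared with Mfrp) completed the set together with Drc7. Drc7 encodes a part of the axonemal dynein regulatory complex, and it was at 5.81, 14.2 and 23.7 CPM in rich against 2.37, 3.37 and 5.22 CPM in poor libraries, a difference of 1.95. Drc7 was picked from all genes for its difference, so the listed axonemal genes, none of which was apart, are not a like comparison.

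No ependymal or motile cilia gene stood apart (0 of 47), beside 80 of all 25382 genes (0.315%). At that share, 0 in a list of this size says little about ependyma. Some members passed under stricter Ttr limits, as given further below. The list's median difference was 0.24 (-0.15 to 1.02), beside -0.0045 over all genes, with 42 of 47 above 0. Of the 47, 15 had a higher mean in each of the 5 mixed groups, beside 1506 over all genes, with 25382 past the filter. The summed level was 313 to 495 CPM in rich and 305 to 412 CPM in poor libraries. Foxj1, the master regulator of motile cilia, was at 10.2, 15.3 and 25.7 CPM in rich and 8.11, 10.2 and 16.4 CPM in poor libraries, a difference of 0.56. Ccdc153, an ependymal marker, was at 2.93, 4.41 and 9.26 CPM against 3.16, 4.19 and 6.09 CPM, a difference of 0.11. Both genes overlapped between the classes, and the highest libraries of both were rich ones.

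The ependymal members differed among themselves by role. Radial spoke, central pair and microtubule genes had a median difference of 0.40, and all 19 were above 0. Dynein arm genes had a median of 0.11 (10 of 12 above 0), regulators 0.13 (4 of 6) and other markers 0.13 (9 of 10). Pifo, a gene of ciliary disassembly, had the largest difference at 1.02, with rich libraries at 0.792 to 2.20 CPM and poor ones at 0.389 to 0.901 CPM. Next came the axonemal dynein heavy chain gene Dnah6, which was at 3.72, 6.94 and 13.7 CPM in rich and 2.56, 3.43 and 5.50 CPM in poor libraries (0.96). Tekt1, a microtubule protein gene of cilia, differed by 0.72. By contrast Rfx3, the most abundant regulator, was at 71.5, 94.0 and 117 CPM against 77.2, 98.6 and 123 CPM (-0.04), and the axonemal gene Ccdc39 had the lowest difference of the list (-0.15).

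**Figure D3:**
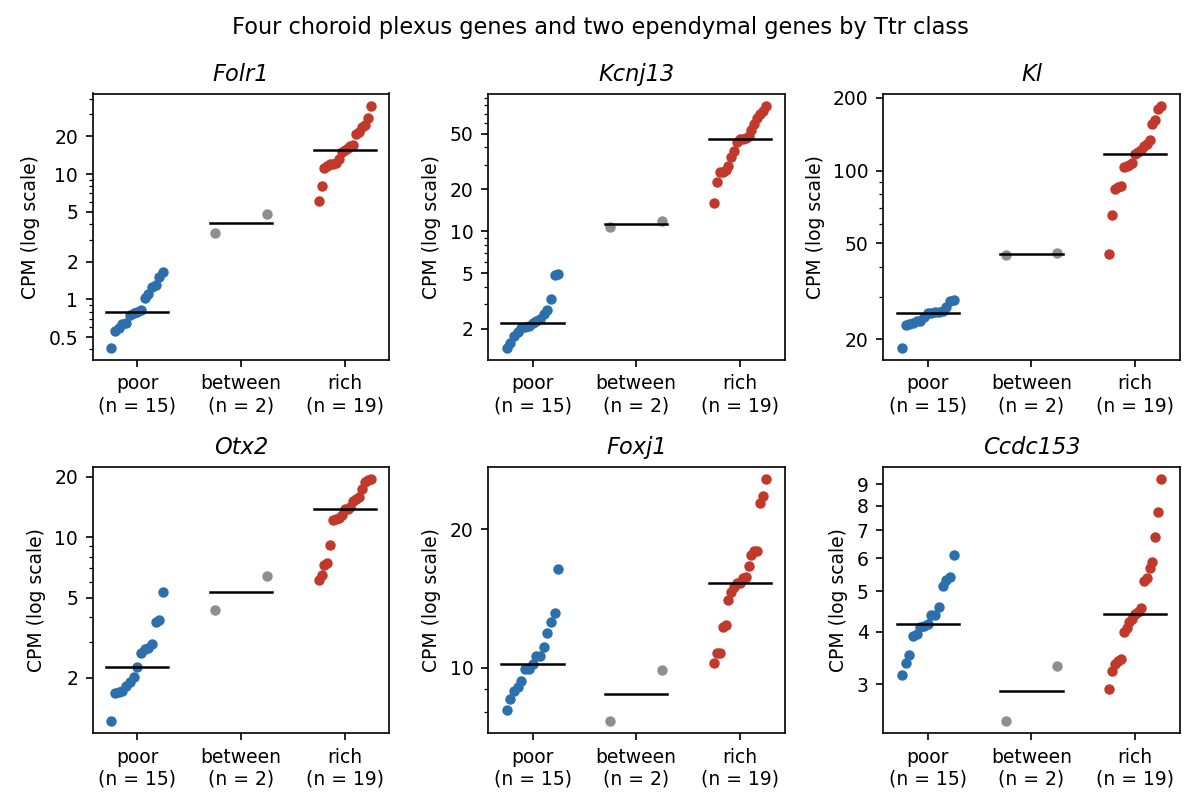
CPM of Folr1, Kcnj13, Kl, Otx2, Foxj1 and Ccdc153 in each library (log axes), grouped as poor (n = 15), between (n = 2) and rich (n = 19); black bars are medians. The choroid plexus genes do not overlap between rich and poor libraries, whereas Foxj1 (10.2 to 25.7 against 8.11 to 16.4 CPM) and Ccdc153 (2.93 to 9.26 against 3.16 to 6.09 CPM) do.

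In each of the other 14 lists, of plexus stroma, neighbouring tissue and other cells, 0 members passed the rule, beside 0.315% of all genes. These lists hold 4 to 20 genes each, so 0 is near that share and sets none of them apart from other genes. Some members passed under other settings, as given further below. The fibroblast and meninges list had a median difference of 0.29, with Pcolce, which enhances procollagen processing, highest at 1.62 (5.45 to 20.6 against 1.504 to 7.58 CPM). Dcn, an abundant fibroblast proteoglycan gene, was at 46.2 CPM in the median rich and 45.5 CPM in the median poor library. Plvap, the diaphragm protein of fenestrated capillaries, was at 4.99 to 9.44 CPM in rich and 4.60 to 7.93 CPM in poor libraries (0.22). The barrier endothelium list had a median of 0.14, and Slco1c1, a thyroid hormone transporter gene of both barrier endothelium and plexus, did not overlap but differed by 0.70. The blood list was the only one with no member above 0 (0 of 5, median -0.20).

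The thalamus and habenula list had the largest median after the choroid plexus, 0.47, with all 14 members above 0. Its summed level ran from 156 to 421 CPM in rich (median 242) and from 155 to 314 CPM in poor libraries (median 174), so the classes overlapped. Tcf7l2, a thalamic transcription factor gene, was at 4.89, 14.4 and 47.6 CPM against 3.91, 6.36 and 28.9 CPM (1.12). In the striatum list, Sh3rf2 (2.56) and Six3 (1.86) differed most. Six3 was at 0.900, 2.53 and 14.1 CPM in rich and 0.181, 0.759 and 2.38 CPM in poor libraries, with overlap, while Drd1, the dopamine receptor gene of the direct pathway, had medians of 4.82 and 5.01 CPM. A single rich library, WT trained replicate 4, summed to 1060 CPM over the striatum list, against 349 to 474 CPM in the other rich libraries. Pyramidal (median -0.09) and dentate granule cell lists (-0.12) lay slightly below 0, and astrocytes (0.04) and microglia (0.05) near it.

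Within the rich class, choroid plexus genes varied together from library to library. Folr1 was paired with 14 marker genes across the 19 rich libraries, as log2 CPM, with permutation tests of 100000 resamples, two-sided, adjusted over the 14. Kl gave Pearson r = 0.955 and Spearman rho = 0.951 (p = 1e-05 each, the smallest the permutations can give, adjusted p = 4.67e-05 and 0.00014). Kcnj13 gave r = 0.899 and rho = 0.846 (permutation p = 1e-05 and 4e-05, adjusted 4.67e-05 and 0.00028). Otx2 gave r = 0.824 and rho = 0.804 (permutation p = 1e-05 and 9e-05, adjusted 4.67e-05 and 0.00042). Without the 2 libraries farthest from the median of Folr1, these r values were 0.942, 0.851 and 0.782.

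Of the ependymal genes, Foxj1 passed with Folr1 in the rich class (r = 0.649, rho = 0.595, permutation p = 0.00292 and 0.00815, adjusted p = 0.0102 and 0.0285), and r was 0.693 without the 2 farthest libraries. After the mean of each genotype and training group was taken off, Foxj1 no longer passed (r = 0.474, rho = 0.465, permutation p = 0.0415 and 0.0464, adjusted p = 0.116 and 0.148), whereas the 3 choroid plexus pairs did. Ccdc153 did not pass (r = 0.287, rho = 0.244, permutation p = 0.234 and 0.314, adjusted p = 0.327 and 0.549). Col1a2, a fibroblast collagen gene, gave r = 0.486 and rho = 0.433 (permutation p = 0.0343 and 0.065, adjusted p = 0.0801 and 0.152). Without the 2 farthest libraries Col1a2 passed by Pearson (r = 0.573, permutation adjusted p = 0.0468) but not by Spearman (rho = 0.510, adjusted p = 0.108). Plvap gave r = 0.532 and rho = 0.488 (permutation p = 0.0193 and 0.0369, adjusted p = 0.054 and 0.103). The remaining 7 markers, of endothelium, striatum, thalamus, myelin, neuroblasts and principal neurons, did not pass.

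In the 15 poor libraries 0 of 14 pairs passed. Kl, so tightly tied to Folr1 in the rich class, gave r = 0.331 and rho = 0.407 (permutation p = 0.232 and 0.132, adjusted p = 0.406 and 0.441). Otx2 gave r = -0.106 and rho = -0.118 (permutation p = 0.708 and 0.677, adjusted p = 0.814 and 0.759). The difference between the classes in these correlations was not tested, and Folr1 spans 0.413 to 1.67 CPM in the poor class. The pairs were computed within classes because Ttr falls into separate clusters over all 36 libraries.

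The share of each choroid plexus gene relative to Ttr was not the same in every rich library. Ecrg4 stayed between 11.7 and 15.3 CPM per 1000 CPM of Ttr over all 19. Folr1 was at 4.03 per 1000 in APP naive replicate 3 and 4.77 in APP trained replicate 3, while the other 17 rich libraries lay between 7.996 and 10.3. Slc4a5 was at 5.66 and 6.32 in the same libraries, against 8.21 to 12.5 in the other 17. Both libraries were thus below the other 17 by a wide gap for Folr1 and Slc4a5. For Ecrg4 APP naive replicate 3 lay inside their range, at 13.97, and APP trained replicate 3 lay at its lower edge, at 11.7499 against 11.7542 in the lowest of them. Of the 59 members other than Ttr, 17 were below the range of the other 17 libraries in both, among them Aqp1, Ace, Abca4, Cldn2, Col8a1 and Enpp2, and 19, among them Krt18 and Calml4, were inside it in both. These 2 libraries were picked out after the values were seen, so the contrast is a description. They held 99.9 and 124.8 M counts, and their Ttr was 2970 and 2508 CPM and their Folr1 12.0 CPM in each.

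**Figure D4:**
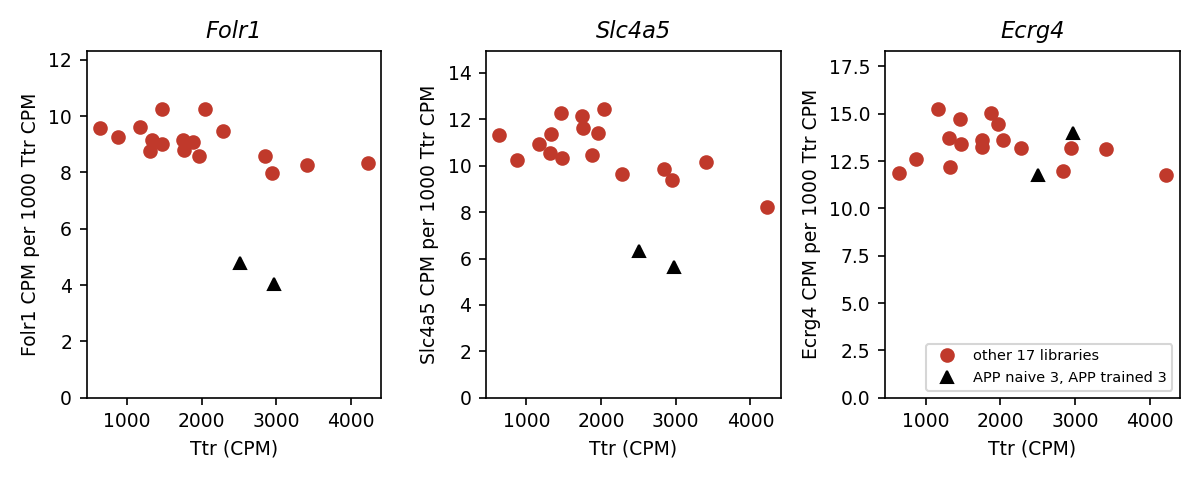
CPM of Folr1, Slc4a5 and Ecrg4 per 1000 CPM of Ttr (vertical axes, from 0) against Ttr CPM in the 19 rich libraries; Ttr enters both axes. Triangles are APP naive replicate 3 and APP trained replicate 3, which lie below the other 17 libraries for Folr1 (4.03 and 4.77 against 7.996 to 10.3) and Slc4a5; for Ecrg4 one lies inside their range and the other at its lower edge.

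The in-between libraries were described apart from both classes. Folr1 was at 3.38 CPM in APP naive replicate 2 and 4.78 CPM in Tau trained replicate 2, between the highest poor (1.67) and the lowest rich library (6.12). Over the choroid plexus list, 59 of 60 members had an in-between median that fell between the class medians, and 5 of 47 ependymal members did. Ttr placed these libraries, so genes that follow Ttr fall between nearly by construction. Ependymal class medians lay close together (list median difference 0.24, against 1.94 for choroid plexus), which leaves little room between them. The share over all genes was not counted, so these counts do not compare the tissues. The ependymal sum was 285 CPM in APP naive replicate 2, below all 19 rich and 15 poor libraries, and 329 CPM in Tau trained replicate 2.

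Differences by label were tested with edgeR's quasi-likelihood test over all 36 libraries and 25382 genes, with Benjamini-Hochberg adjustment, averaging over the other labels. Between libraries with and without APP, 21 genes were called, 6 higher (0.0236%) and 15 lower (0.0591%) with APP. By the Tau label 216 were higher (0.851%) and 36 lower (0.142%). By training 0 were higher (0%) and 0 lower (0%), with 1879 genes at an unadjusted p under 0.05 and 7 called by DESeq2. The calls compare libraries by label, and what lies behind them was not tested. The Tau total of 252 moved with single libraries: it was 59, 140 and 408 without APP trained replicate 1, 2 and 3, 124 and 102 without Tau trained replicate 1 and 3, 79 and 407 without Tau naive replicate 2 and 3, and 154 without APP/Tau trained replicate 3. No choroid plexus member (0 of 60) and no ependymal member (0 of 47) passed in any of the 3. With APP, the choroid plexus members had a median log2 fold change of 0.84, and 55 of 60 had an unadjusted p under 0.05, beside 2403 of all 25382 genes. Without APP trained replicate 2, the library with the most Ttr, this count was 27 of 60 and the median 0.70. Ttr differed by 1.63 ± 0.72 (SE, adjusted p = 0.46 by edgeR), Folr1 by 1.31 ± 0.60 (adjusted p = 0.48 by edgeR) and Msx1, with the smallest p of the list, by 0.61 ± 0.19 (adjusted p = 0.29 by edgeR). With log2 Ttr as a covariate the members' median was 0.09, with 8 of 60 at an unadjusted p under 0.05. Ttr is itself one of the 60 and made the classes, so this covariate cannot serve as a separate test. With the label's library number as a covariate the members' median was 0.60, with 16 of 60. With Tau the median was 0.006, with 0 of 60, and with training it was -0.48, with 4 of 60. The training median was 0.05, with 1 of 60, when the library number was a covariate, and -0.62, with 15 of 60, without APP trained replicate 2. The rich libraries were 11 of 16 with APP and 8 of 18 without it, and the part of that imbalance in the APP values was not tested. Ependymal members had medians of 0.19, 0.10 and -0.07 with APP, Tau and training. The library labelled Tau trained replicate 4, a poor one, had Prnp at 830 CPM, far from 1460 to 2061 CPM in the other libraries labelled with Tau. This value lay inside the range of the libraries without Tau, 730 to 866 CPM. The library was kept under its label and counted with Tau in every test, and no choroid plexus or ependymal call changed without it.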

How the data were processed

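For 36 libraries, the authors deposited whole-number counts without normalization, in a table of 50559 gene symbols. Per the labels, 100 ng of RNA entered poly(A) selection, and paired reads of 150 bp were planned to a depth of 40 M (M for mega). Trimmomatic 0.39 and the build mm39 are named in the submitters' processing notes; aligner, counter, strand use and annotation were not given in the sources used here, so overlapping genes and pseudogenes are uncertain. CPM used the plain total of each library. Log2 CPM used a prior count of 2, and 25382 genes passed filterByExpr (minimum count 10, minimum total 15). Label contrasts used edgeR 4.0.16 in R 4.3.3 with TMM and a mean for each of the 8 groups, glmQLFit (robust) and glmQLFTest, with an adjusted p threshold of 0.05, and DESeq2 1.42.0 was an alternative. Correlations were planned over all 36 libraries but were computed within classes because the libraries fell into clusters.

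The classes, members and lists were chosen with earlier results of these data known. Genes named by rule were the 4 most abundant of each choroid plexus or ependymal role, the 3 most abundant of each other list, and the 12 largest differences outside the lists, with established symbols and a mean log2 CPM of at least 0; genes named beyond these were chosen after their values were seen. Promoters came from RefSeq on GRCm38.p6, another build than that of the counts, and 26 of 36 and 40 of 52 listed symbols matched.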

Additional observations from a re-analysis of the deposited data

Results flagged for a closer look

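Dixon's test at the 95% level was applied to the groups of 4 or more libraries, for 5 measures and 30 combinations of group and measure, and chance picks out about 1 in 20 groups. In Tau naive mice, Ttr was 3411 CPM in replicate 4, far above 1172 to 1461 CPM in the other 3 libraries. Ttr is also the value that made the classes, so its values here are a description. In Tau trained mice, replicate 2 stood far above the other 3 libraries in Ttr (474 CPM against 47.4 to 65.7), in Folr1 (4.78 CPM against 0.816 to 1.10) and in the summed choroid plexus list without Ttr (1272 CPM against 797 to 827). The rule had already placed this library between the class limits. Foxj1 was low in Tau trained replicate 1, at 8.92 CPM against 9.89 to 9.94 CPM in the other 3, a narrow range in which small gaps are picked out.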

How the results depend on the processing

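Scaling by edgeR's TMM or RLE factors, a prior count of 0.5 and no filter on low counts left 80 to 84 genes higher in rich libraries. At least 79 of the 80 genes were shared. Folr1 in place of Ttr gave the same 19 and 15 libraries and the same 80 genes. Folr1 is itself one of the 80 genes without overlap, so this result was built in and is no separate support. A division at the median of Ttr gave 57 genes, 44 of them shared. Ttr limits of 1000 and 50 CPM gave 156 higher genes, 3 ependymal members and 2 of other lists. Averaging the differences within the 5 mixed groups, an alternative added after the data were seen, gave 267 higher genes (79 shared), 18 lower ones and 4 members of other lists. Leaving out each library in turn gave 80 to 95 higher genes, the most without WT trained replicate 4, with 36 to 39 choroid plexus members. It gave 0 lower genes, and 0 ependymal and 0 other members. Leaving out a library cannot create overlap, so only the limit on size could have lowered the counts of higher genes. In the poor class, 2 pairs with Folr1 passed by Pearson and 0 by Spearman after group means were taken off, over 13 libraries. They were the ependymal gene Ccdc153 (r = 0.748) and the pyramidal cell gene Wfs1 (r = -0.714), each with a permutation adjusted p of 0.0412.

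Genes called by APP numbered 15 to 29 when each library was left out, by Tau 59 (without APP trained replicate 1) to 408 (without APP trained replicate 3), and by training 0 to 2. DESeq2 called 78, 565 and 7 genes, and without a filter Tau called 148. Ependymal members called by APP were 0 to 1 (1 without WT naive replicate 5) and by Tau 0 to 1 (1 without APP/Tau trained replicate 2), with 2 and 1 by DESeq2 and 1 by Tau with the library number as a covariate. Choroid plexus members called were 0 in every alternative run. The cause of these shifts was not tested. With the labels' replicate number as a block, APP called 17, Tau 135 and training 0 genes. Same-numbered libraries of different groups had a median correlation of -0.013 in their deviations, and 18 of 106 pairs were over 0.1, so the numbers were not taken to pair the samples. The counts of libraries by label stayed on the same side of the threshold under both other Ttr limits. Low counts limit the members under 1 CPM, such as Cltrn, listed at 0 to 0.205 CPM in poor libraries.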

Other observations

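No gene passed the rule in the downward direction. The largest downward differences, chosen after their values were seen, were those of processed pseudogenes whose levels fell into high and low libraries in both classes. Rps2-ps10 was at 4.43, 6.34 and 155 CPM (lowest, median, highest) in rich and 4.67, 132 and 262 CPM in poor libraries. Rnps1-ps was at 0.241, 0.619 and 25.9 CPM against 0.194, 23.6 and 51.3 CPM, and Atp6v0c-ps2 at 4.60, 5.88 and 108 CPM against 4.62, 96.4 and 193 CPM. Reads of such copies can be shared with their parent genes, so the values are uncertain.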
